A study of Mus musculus with 6 samples.

Results

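The linker histone H1 genes examined here were Hist1h1a, Hist1h1b, Hist1h1c, Hist1h1d, Hist1h1e, H1f0 and H1fx, 7 of the 55421 gene IDs counted in each library. They were found by matching gene IDs to symbols in GENCODE mouse release M21 on GRCm38. The family was chosen by the measured counts of Hist1h1c, which stood out between insB:9-23 and vehicle islets and whose zeros prompted a look at its relatives. The values of Hist1h1c in that comparison are therefore given as a description, with no test. The libraries were pancreatic islets of wild-type C57BL/6 mice in 2 groups of 3: islets given ligand stimulation with insB:9-23, and islets given vehicle. In diabetes research insB:9-23 commonly denotes an insulin B chain peptide. The sources used here do not give dose, route, duration, age or sex, or whether mice or isolated islets received the ligand. The labels do not say whether each library came from a separate mouse or from a pool, so each p-value reflects library-to-library spread that may be purely technical.

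Linker histones bind the nucleosome where DNA enters and leaves it, and help to fold chromatin into compact fibres. Hist1h1a to Hist1h1e are replication-dependent variants encoded in the large histone gene cluster. Their messages are classically made in S phase and end in a conserved stem-loop, bound by the stem-loop binding protein, in place of a poly(A) tail. H1f0 and H1fx lie outside that cluster, are replication-independent and give polyadenylated messages. H1f0 is known as the variant that accumulates in differentiated cells that have stopped dividing.

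In the GENCODE M21 transcripts, all 7 genes had 1 transcript with 1 exon. The histone stem-loop, searched on the transcript strand as the 16 letters capitalised below, with any base allowed directly after the run of T, was found in 37 of 58797 protein-coding transcripts (0.0629%). Among the 7 genes it lay in Hist1h1c, Hist1h1d and Hist1h1e. The sites are shown because they mark the replication-dependent kind of message end, with the stem-loop in capitals and 5 flanking bases on each side in lower case. Coordinates are GRCm38, chr13:23739507-23739532 on the plus strand for Hist1h1c, chr13:23555782-23555807 on the plus strand for Hist1h1d and chr13:23621777-23621802 on the minus strand for Hist1h1e.
Hist1h1c: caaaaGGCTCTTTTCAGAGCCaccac
Hist1h1d: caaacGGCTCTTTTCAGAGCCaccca
Hist1h1e: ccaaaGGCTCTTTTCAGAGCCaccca

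The stem-loop was the same 16 letters in these 3 genes. The annotated Hist1h1c transcript of 1560 bases continued for 840 bases after it, and a poly(A) signal, AATAAA, began 26 bases before the annotated end. H1f0 and H1fx had no stem-loop match, and AATAAA began 22 and 21 bases before their ends. Hist1h1e continued for 1153 bases after the stem-loop with neither AATAAA nor ATTAAA in its last 40 bases. One or the other hexamer stood in the last 40 bases of 48.7% of protein-coding transcripts. The annotated transcripts of Hist1h1a and Hist1h1b, of 741 and 743 bases, had no match to the stem-loop letters. They held neither hexamer in their last 40 bases. Other spellings of the stem-loop were not searched, so no match does not mean that a stem-loop is absent.

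Upstream of the RefSeq transcription start, the family also divided by sequence. All 7 genes had an entry in the RefSeq promoter table (GRCm38.p6). Both strands of the 250 bases before each RefSeq start were searched for the H1 box AAACACA, the CCAAT box CCAAT, which the factor NF-Y binds, and the TATA box TATANA. The 4 members Hist1h1b, Hist1h1c, Hist1h1d and Hist1h1e held all of them, against 0.667% of 32851 windows of this length. The single motifs occurred in 6.25% (H1 box), 33.8% (CCAAT box) and 22.6% (TATA box) of these windows. Hist1h1a held the CCAAT and TATA boxes only, and the windows of H1f0 and H1fx held none of these letters. RefSeq and GENCODE starts differ for some members. The Hist1h1d window (chr13:23554782-23555031) lies inside its GENCODE gene, and the H1fx window (chr6:87981483-87981732) overlaps its GENCODE gene. That of H1f0 ends short of its GENCODE start at 79028450. The windows of Hist1h1c and of H1f0, the pair with the highest levels, and of Hist1h1e, a cluster gene at a low level, are printed below with every match in capitals. TATANA matches on opposite strands overlap. Their positions are chr13:23738557-23738806 (plus strand, Hist1h1c), chr13:23622559-23622808 (minus strand, Hist1h1e) and chr15:79027962-79028211 (plus strand, H1f0).
Hist1h1c: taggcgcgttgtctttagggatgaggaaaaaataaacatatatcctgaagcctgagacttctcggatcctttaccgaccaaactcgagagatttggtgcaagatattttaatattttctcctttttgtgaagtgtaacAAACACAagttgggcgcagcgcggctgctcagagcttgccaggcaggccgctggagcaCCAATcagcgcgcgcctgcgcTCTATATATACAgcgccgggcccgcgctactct
Hist1h1e: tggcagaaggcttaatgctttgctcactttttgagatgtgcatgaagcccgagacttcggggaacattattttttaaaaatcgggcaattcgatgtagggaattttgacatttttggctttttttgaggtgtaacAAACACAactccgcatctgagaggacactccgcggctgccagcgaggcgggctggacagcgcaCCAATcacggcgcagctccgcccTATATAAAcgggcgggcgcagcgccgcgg
H1f0: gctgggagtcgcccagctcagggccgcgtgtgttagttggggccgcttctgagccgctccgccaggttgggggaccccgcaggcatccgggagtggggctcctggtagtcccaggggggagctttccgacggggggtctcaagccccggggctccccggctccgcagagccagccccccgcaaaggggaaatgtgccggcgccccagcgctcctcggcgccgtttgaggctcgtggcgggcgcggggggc

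In Hist1h1c the H1 box began 112 bases and the CCAAT box 54 bases before the start. In Hist1h1e they began 115 and 52 bases before it. A match describes letters only, and no match says nothing of whether a factor acts there.

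Total counts lay between 53805531 and 58445046 in the insB:9-23 libraries and between 52052808 and 58880189 in the vehicle libraries. A count of 0 allows up to 3 counts, or 0.0512 to 0.0655 CPM in the insB:9-23 libraries and 0.0475 to 0.0562 CPM in the vehicle libraries (CPM, counts scaled to library size with TMM factors; the limit covers counting error only). Of 10 beta cell markers, 9 were counted, with a summed level of 117700 to 130900 CPM in the insB:9-23 libraries and 113600 to 126000 CPM in the vehicle libraries. Mafa, a beta cell transcription factor whose gene has a single exon, named after its values were seen, was at 0 in all 6 libraries. The 12 acinar markers, all counted, summed to 157600, 134600 and 263700 CPM in insB:9-23 replicates 1 to 3. Their sums were 119600 to 145200 CPM in the vehicle libraries. The 6 B and plasma cell markers summed to 61.6 CPM in insB:9-23 replicate 2 and to between 6.71 and 12.4 CPM in the other libraries. The part these differences play in the linker histone values was not tested.

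Hist1h1c, one of the major somatic linker histones, had 0 counts in each of the 3 insB:9-23 libraries, against 7157, 6586 and 6337 counts in vehicle replicates 1 to 3. These were 113, 106 and 119 CPM in the vehicle libraries. The groups did not overlap, and the vehicle libraries were close to each other, with a highest to lowest ratio of 1.13. With 3 counts per library as the floor, the deposited count of Hist1h1c was at least 1984-fold lower in the insB:9-23 group. That bound covers counting error only and is no bound on expression. Most single-exon genes were likewise at 0 in some library, as given further on, and Mafa was at 0 in every islet library. Whether the zeros of Hist1h1c, H1f0 and H1fx come from how reads were counted or filtered was not tested. The comparison that chose the family called 14 of 17016 genes by edgeR (0.0823%), Hist1h1c among them by that choice, with 9 lower in the insB:9-23 group (0.0529%). In 13.5% of the tested genes the groups did not overlap, and in 7.12% they did not overlap with the insB:9-23 group lower. Nothing about Hist1h1c is read from the call or from these shares. Hist1h1c lies on the plus strand of chromosome 13 from 23738808 to 23740367, with no other annotated gene overlapping it.

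H1f0 was all or none as well, but its zeros did not follow treatment. It had 0, 10354 and 8408 counts in insB:9-23 replicates 1 to 3, and 12374, 11620 and 0 counts in vehicle replicates 1 to 3. In CPM the insB:9-23 libraries with counts stood at 184 and 184, and the vehicle libraries with counts at 196 and 186. One library of each group was thus at 0, and the other 4 lay within a highest to lowest ratio of 1.07. The fit over all genes gave a log2 fold of -0.06 ± 2.45 (SE; edgeR adjusted p = 0.997), an error that leaves the direction undetermined. H1f0 lies on the plus strand of chromosome 15 from 79028450 to 79030504. Its first 163 bases overlap the span of the antisense gene Gm49544, introns included. Gm49544 had 53, 0 and 0 counts in the insB:9-23 libraries and 0, 76 and 0 in the vehicle libraries. Whether counting used strand is not stated, so reads of this pair cannot be told apart.

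**Figure D1:**
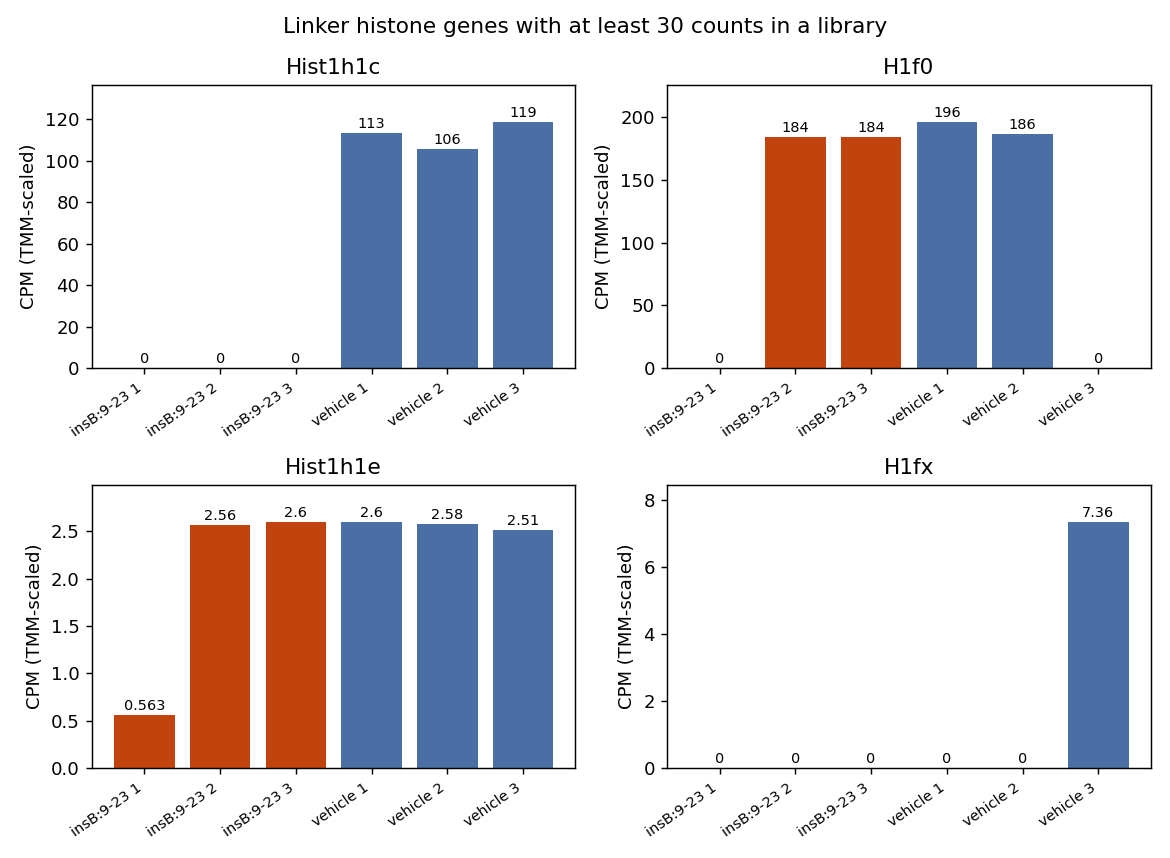
Level in CPM (TMM-scaled, linear axis from 0) of the 4 linker histone genes that reached at least 30 counts in a library, 1 bar per library, with insB:9-23 libraries in red and vehicle libraries in blue. Hist1h1c is at 0 in the 3 insB:9-23 libraries, H1f0 is at 0 in 1 library of each group, Hist1h1e is near 2.5 CPM in all but insB:9-23 replicate 1, and H1fx has counts in vehicle replicate 3 only.

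Hist1h1e, another of the major somatic variants, was the 1 member counted in every library. It had 33, 144 and 119 counts in the insB:9-23 libraries and 164, 161 and 134 counts in the vehicle libraries. Its levels were 0.563, 2.56 and 2.6 CPM in the insB:9-23 libraries, against 2.6, 2.58 and 2.51 CPM in the vehicle libraries. The groups overlapped, and insB:9-23 replicate 1 alone stood apart. The log2 fold was -0.43 ± 0.56 (SE; edgeR adjusted p = 0.93), and 0.01 ± 0.20 without that library (adjusted p = 0.995). Hist1h1e lies on the minus strand of chromosome 13 from 23620629 to 23622558. Of it, 496 bases overlap the span of Hist1h2be, introns included, on the same strand. How much of this overlap is exon of Hist1h2be was not determined. Reads of Hist1h1e could therefore be shared, and its count is uncertain. Hist1h2be had 214, 127 and 113 counts in the insB:9-23 libraries and 222, 307 and 214 counts in the vehicle libraries, and it was not low in insB:9-23 replicate 1.

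H1fx, a divergent replication-independent variant on chromosome 6 (87980421 to 87981637, minus strand), had 0 counts in the 3 insB:9-23 libraries. It had 0, 0 and 393 counts in vehicle replicates 1 to 3, or 7.36 CPM in the last. A single library thus held all its counts, and the groups overlapped at 0. It did not pass the filter on low counts. Without that filter its adjusted p was 0.78 (edgeR). H1fx shares 755 bases with the span of Gm5577, introns included, on the opposite strand. Gm5577 was counted in all 6 libraries, with 94, 84 and 219 counts in the insB:9-23 group and 52, 54 and 125 in the vehicle group.

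The other cluster members were at or near the floor. Hist1h1a (chromosome 13, 23763666 to 23764406) and Hist1h1b (chromosome 13, 21779883 to 21780625) had 4 and 8 counts in vehicle replicate 1 and 0 in the other 5 libraries. Hist1h1d (chromosome 13, 23553262 to 23560686) had 0 counts in all 6 libraries. In all, 3 of the 7 genes (Hist1h1c, Hist1h1e and H1f0) passed the filter and were tested. The germline variants were also at or near 0. Hist1h1t, a testis variant, had 4 counts in vehicle replicate 1 and none elsewhere, H1foo of the oocyte and H1fnt of the testis had none, and Hils1, of spermatids, had at most 8 counts in a library.

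Because of these zeros the summed linker histone level differed widely between libraries of a group. The 7 genes together held 33, 10498 and 8527 counts in insB:9-23 replicates 1 to 3, and 19707, 18367 and 6864 counts in vehicle replicates 1 to 3. That is 0.563, 187 and 186 CPM in the insB:9-23 libraries, against 312, 294 and 129 CPM in the vehicle libraries. Every insB:9-23 sum lay above or below the lowest vehicle sum according to whether H1f0 was counted there. In insB:9-23 replicate 1, neither H1f0 nor Hist1h1c was counted, and all 33 counts were those of Hist1h1e. H1f0 held 98.6% of the family's counts in insB:9-23 replicates 2 and 3. In vehicle replicates 1 and 2 it held 62.8% and 63.3%, and Hist1h1c held 36.3% and 35.9%. In vehicle replicate 3, with H1f0 at 0, Hist1h1c held 92.3% and H1fx 5.73%.

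**Figure D2:**
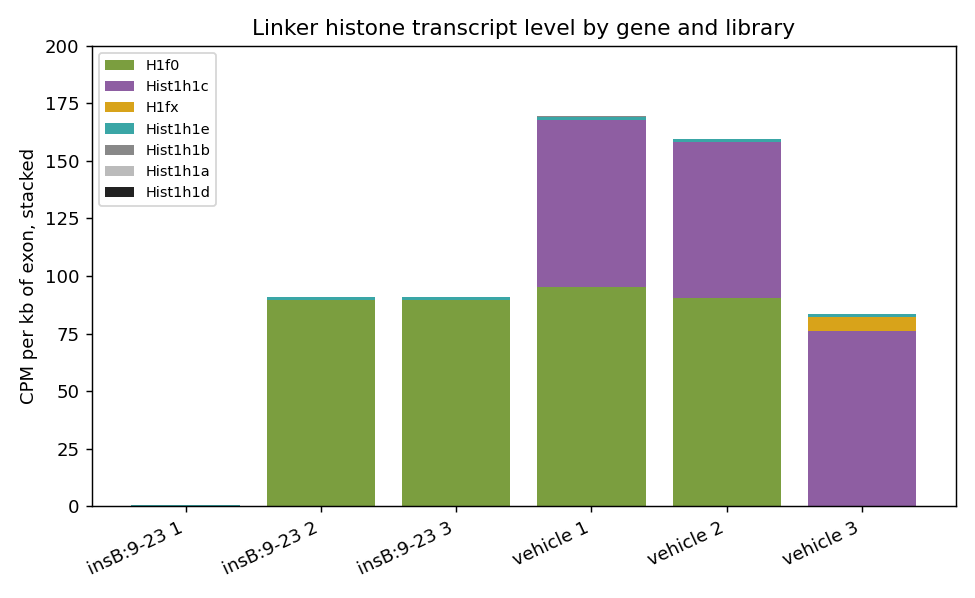
Level per length (CPM per kb of annotated exon, stacked by gene, linear axis from 0) in each library, with the 3 insB:9-23 libraries left of the 3 vehicle libraries. Vehicle replicates 1 and 2 hold both H1f0 and Hist1h1c, insB:9-23 replicates 2 and 3 hold H1f0, vehicle replicate 3 holds Hist1h1c, and insB:9-23 replicate 1 holds neither.

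Levels of different genes were compared in CPM per kb of exon. Hist1h1c averaged 0 in the insB:9-23 group and 72.1 ± 4.25 in the vehicle group (SD, n = 3 each). H1f0 averaged 59.7 ± 51.7 in the insB:9-23 group and 62.0 ± 53.7 in the vehicle group, where the SD reflects the zeros. H1fx was at 0 in the insB:9-23 group and at 2.02 ± 3.49 in the vehicle group. Hist1h1e was at 0.989 ± 0.604 in the insB:9-23 group and 1.33 ± 0.0235 in the vehicle group. In the vehicle means the order was therefore Hist1h1c, H1f0, H1fx, Hist1h1e, Hist1h1b, Hist1h1a and Hist1h1d.

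Neighbours in that order were compared within the 6 libraries by an exact two-sided sign-flip permutation test, adjusted over the 6 pairs. The adjusted p was 0.19 or more for all 6 pairs, the one with Hist1h1c included. The smallest possible exact p is 0.0312, which becomes 0.19 for a pair that reaches it alone, and the order came from the vehicle libraries that entered the test. The p-values are therefore not read, and the differences are a description. Hist1h1e was above Hist1h1b in 6 of 6 libraries, by 1.13 ± 0.415 CPM per kb (SD). H1f0 was above H1fx in 4 of 6 libraries, by 59.8 ± 48.8 CPM per kb (SD). Hist1h1c was above H1f0 in 1 of 6 libraries only, vehicle replicate 3, and the mean difference was -24.8 ± 61.9 CPM per kb (SD). The difference of H1fx and Hist1h1e was -0.15 ± 2.44 CPM per kb (SD). For the last 3 genes, at or near 0, no order can be read.

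The all-or-none pattern was compared with that of other genes. There were 123 protein-coding genes with 1 exon in every transcript and at least 5 CPM in 1 or more libraries. Of these, 95 had 0 counts elsewhere (77.2%, with an exact Clopper-Pearson 95% interval of 68.8% to 84.3%). Among protein-coding genes with more exons, 57 of 10681 did (0.534%, interval 0.404% to 0.691%). H1f0, Hist1h1c and H1fx were among the 95 single-exon genes. Each library had such zeros, with 50, 43 and 42 of the single-exon genes at 0 in insB:9-23 replicates 1 to 3 and 51, 47 and 53 in vehicle replicates 1 to 3. The groups overlapped in their number of zeros.

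The zeros were then set against the 2 treatment groups. Of the 95 genes, 15 were at 0 in exactly 3 libraries. In 2 of these 15, Hist1h1c and Galnt4, all zeros were in the insB:9-23 group. In 0 all zeros were in the vehicle group, and in 13 the zeros were spread over both groups. Hist1h1c was chosen for its zeros, so its place among the 2 is no support. An exact two-sided permutation test of 3 against 3 libraries cannot go below p = 0.10, so for a single gene it cannot show that zeros follow treatment. That 0.10 is also the share of such splits that follow the groups, so 2 of 15 is read as neither few nor many. In the 54 of the 95 genes at 0 in 1 to 3 libraries, levels were mostly close where counted. The ratio of the highest to the lowest counted CPM had a median of 1.36 (quartiles 1.16 and 1.51), and it was at most 1.5 in 39. Genes at 0 in more libraries were not included.

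**Figure D3:**
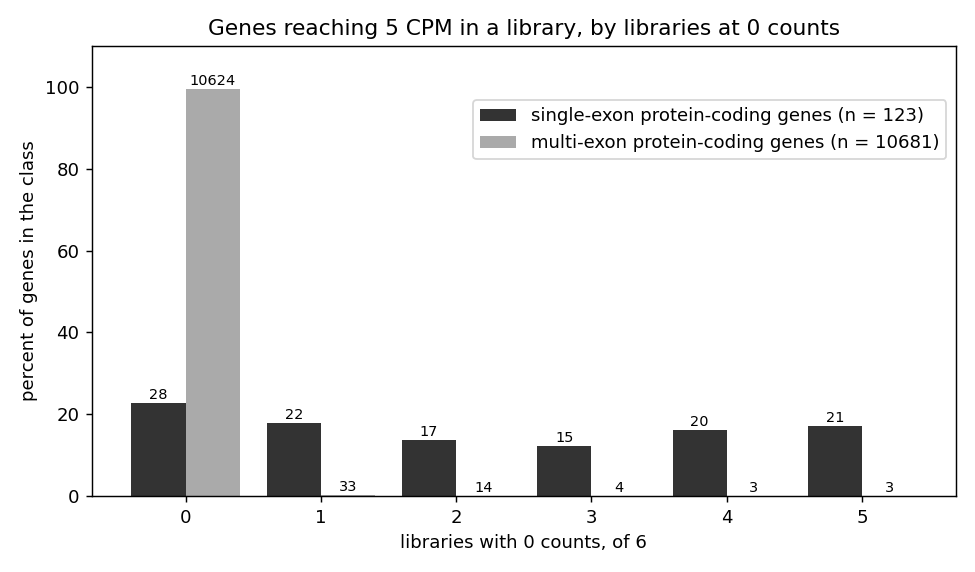
Percent of protein-coding genes (linear axis from 0) by the number of libraries in which they had 0 counts, for single-exon genes (dark) and multi-exon genes (grey) that reached 5 CPM in at least 1 library, with gene numbers above the bars. Of the single-exon genes 95 of 123 had 0 counts in at least 1 library, against 57 of 10681 multi-exon genes.

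The genes most like Hist1h1c over the 6 libraries, by Pearson's r of log2 CPM among 12538 genes, were Nhlrc1 (r = 0.99993), Galnt4 (r = 0.99990) and Nsun3 (r = 0.99798). Nhlrc1, encoding the ubiquitin ligase malin, had 0 counts in the insB:9-23 libraries and 196, 208 and 176 in the vehicle libraries. Galnt4, which starts O-linked glycosylation, had 0 counts in the insB:9-23 libraries and 1861, 2076 and 1931 in the vehicle libraries. Both have a single exon. Nsun3, a mitochondrial tRNA methyltransferase gene with up to 6 exons, had 189, 187 and 161 counts in the insB:9-23 libraries and 719, 776 and 618 in the vehicle libraries. Hist1h1c divided exactly by group, so this ranking repeats the comparison that chose the family. Nhlrc1, Galnt4 and Nsun3 were themselves among the 9 genes called lower in it by edgeR. Nothing further is read from their likeness.

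The genes most like H1f0 were Pigm (r = 0.99999), Hspa2 (r = 0.99994) and Tmem185b (r = 0.99966). Pigm, a single-exon gene for a mannosyltransferase of GPI anchor synthesis, had 0, 1355 and 1116 counts in insB:9-23 replicates 1 to 3 and 1564, 1562 and 0 in vehicle replicates 1 to 3. It was the 1 other gene of the 123 with its zeros in the same libraries as H1f0. Hspa2, a heat shock protein gene, had 0, 1031 and 834 counts in the insB:9-23 libraries and 1363, 1227 and 0 in the vehicle libraries. Tmem185b, a membrane protein gene, had 0, 546 and 553 counts in the insB:9-23 libraries and 667, 571 and 0 in the vehicle libraries. Hspa2 and Tmem185b have up to 2 exons. Nsun3 was counted in every library, and the other genes named share the zeros of Hist1h1c or of H1f0. All these likenesses are over 6 libraries, which share their depth, and describe the libraries only.

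Around Hist1h1c, 13 other protein-coding genes reach within 50 kb, 11 of them histone genes. Hfe, a multi-exon iron regulation gene in the same stretch, was counted evenly, with 14.0, 16.6 and 14.1 CPM in the insB:9-23 libraries and 16.1, 17.2 and 16.5 CPM in the vehicle libraries (log2 fold -0.16 ± 0.11, SE; edgeR adjusted p = 0.89). Hist1h2bc, a core histone gene with 2 exons, had 3303, 3739 and 795 counts in the insB:9-23 libraries and 4036, 870 and 8 in the vehicle libraries, which overlap. The other histone genes there (Hist1h1a and Hist1h1t, described above, and Hist1h4c, Hist1h3c, Hist1h2bb, Hist1h2ab, Hist1h3b, Hist1h4b, Hist1h4a and Hist1h3a) had at most 42 counts in any library. Trim38, at the far end, had 8 to 30 counts in the insB:9-23 libraries and 10 to 26 in the vehicle libraries. Within this window Hist1h1c was the 1 gene at 0 throughout one group and above 1 CPM throughout the other. That pattern chose Hist1h1c. Of its neighbours, only Hfe and Hist1h2bc exceeded 1 CPM in any library, so nothing is read from this.

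**Figure D4:**
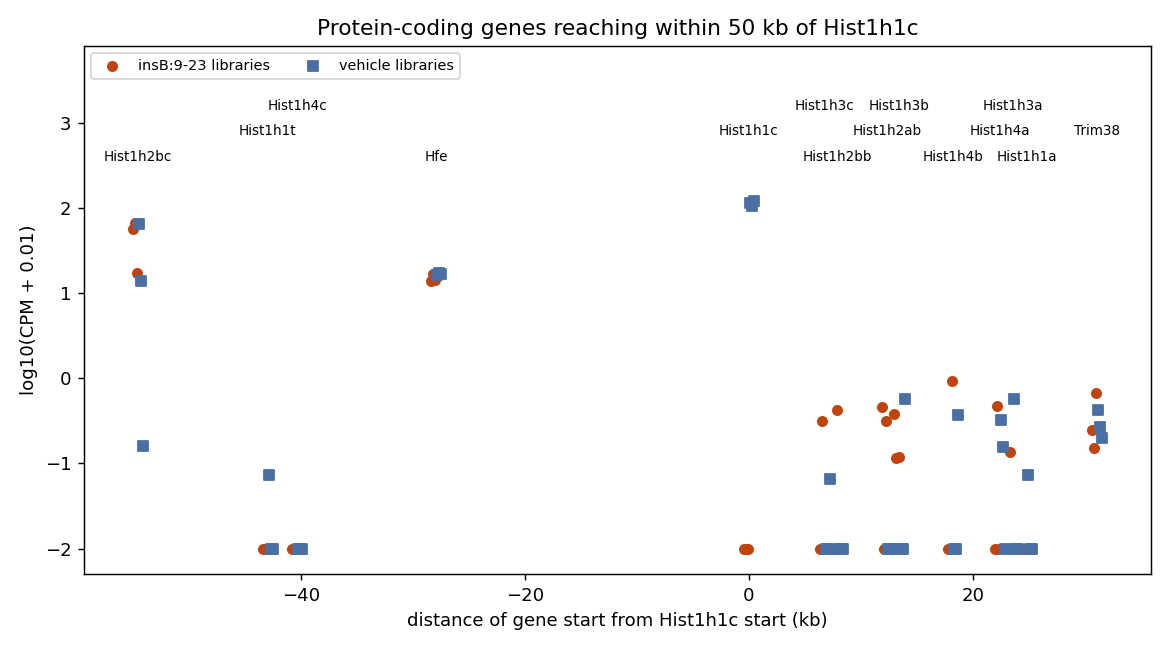
Level of protein-coding genes that reach within 50 kb of Hist1h1c (log10 of CPM + 0.01, so that 0 counts lie at -2) against the distance of the gene start from the Hist1h1c start in kb, 1 point per library (circles, insB:9-23; squares, vehicle). Hfe lies level in all libraries, while Hist1h1c lies at -2 in the insB:9-23 libraries and near 2 in the vehicle libraries.

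The core histones, with which linker histones package DNA, were also counted in some libraries and not in others. Of 61 replication-dependent core histone genes, 56 have a single exon, 26 had 0 counts in all 6 libraries and 31 had counts in some libraries only. Of these 61, 8 reached at least 100 counts in a library, and 5 of the 8 were counted in 1 library and at 0 in the other 5. These 5, partly chosen after their values were seen, were Hist2h2aa1 (1425 counts), Hist3h2ba (340) and Hist3h2a (112) in insB:9-23 replicate 2, Hist1h4h (257) in insB:9-23 replicate 1 and Hist1h2ac (117) in vehicle replicate 3. Hist1h4i, encoding a histone H4, had 0 counts in the insB:9-23 libraries and 430, 0 and 311 in the vehicle libraries. Of the 7 core histone genes tested, 4 had a fold above 0 and 3 below, and 0 passed the edgeR test (0 at an unadjusted p below 0.05, and smallest adjusted p = 0.88). Over all genes tested, 5.55% had an unadjusted p below 0.05, the share to set beside this list and each list below. The core histones had a median log2 fold of 0.32, against 0.01 over all genes tested.

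Replacement histones are made outside S phase as well. Of 9 genes tested, 4 had a fold above 0 and 5 below, with a median of -0.02, and 0 passed the edgeR test. Against 5.55% of all genes tested, 1 of the 9 had an unadjusted p below 0.05. That one, H3f3a, encoding histone variant H3.3, stood at 185 ± 17.9 CPM in the insB:9-23 group and 145 ± 19.1 CPM in the vehicle group (SD, n = 3 each; edgeR adjusted p = 0.88). Cenpa, the centromeric H3 variant, was at 1.81 ± 0.816 CPM in the insB:9-23 group and 1.28 ± 0.264 CPM in the vehicle group (edgeR adjusted p = 0.90). H2afx, the single-exon gene of the DNA damage variant H2A.X, chosen after its values were seen, had 0, 0 and 552 counts in the insB:9-23 libraries and 1097, 1235 and 1004 in the vehicle libraries. Its groups did not overlap, yet its log2 fold of -2.22 ± 2.03 did not pass (SE; edgeR adjusted p = 0.91). H2afj, also chosen after its values were seen, had 1329, 1449 and 886 counts in the insB:9-23 libraries and 1484, 1328 and 0 in the vehicle libraries.

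**Figure D5:**
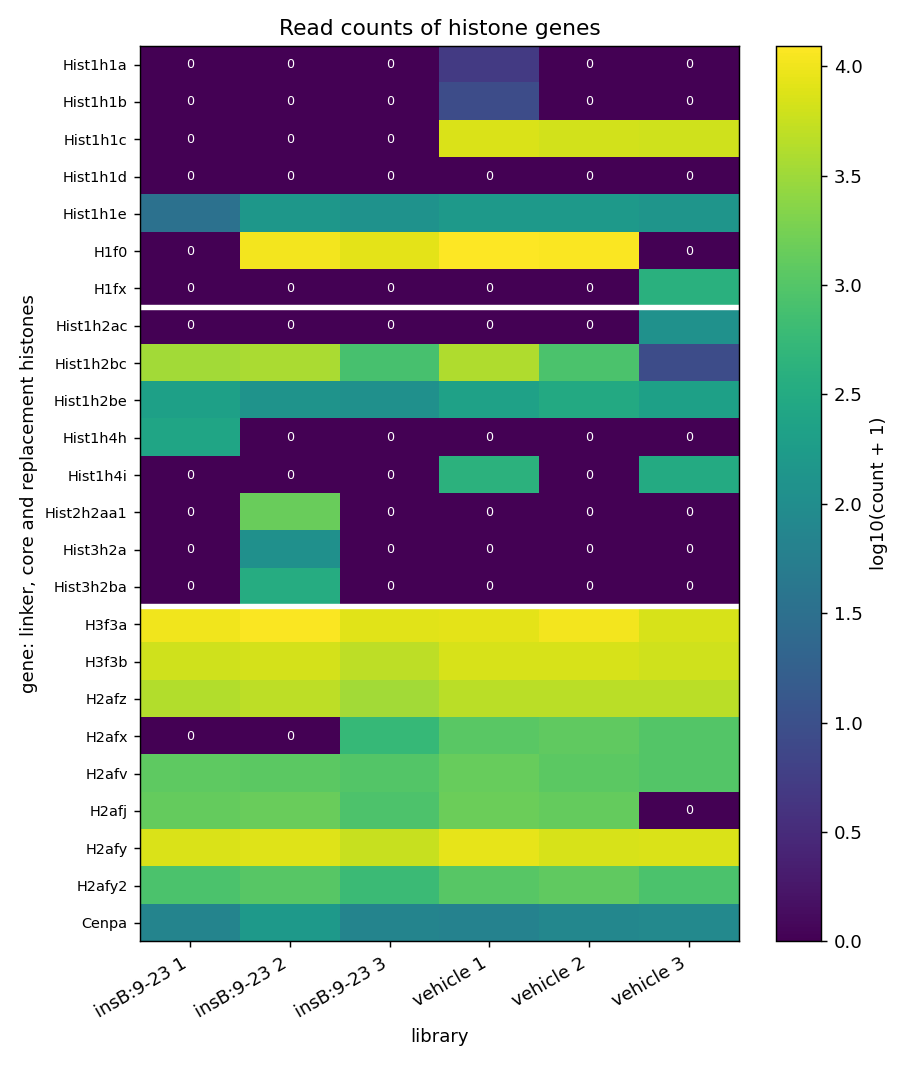
Read counts (colour, log10 of count + 1) of the 7 linker histone genes, the 8 core histone genes that reached 100 counts and the 9 replacement histone genes in each library, with cells at 0 counts marked 0 and the insB:9-23 libraries left of the vehicle libraries. Zeros in some libraries beside high counts in others occur for Hist1h1c, H1f0, Hist2h2aa1, H2afx and H2afj, in different libraries.

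Genes that make or handle linker histones did not pass the test. Of 15 genes for processing of histone messages, 5 had a fold above 0 and 10 below, with a median log2 fold of -0.03, and 0 were called by edgeR (0 at an unadjusted p below 0.05). Slbp, the stem-loop binding protein, named outside the rule for its role and with its values known, had 946, 1148 and 781 counts in the insB:9-23 libraries and 1029, 1048 and 976 in the vehicle libraries. Its log2 fold was 0.06 ± 0.12 (SE; edgeR adjusted p = 0.95). Cpsf3, the endonuclease that cuts histone messages, was at 47.4 ± 1.62 CPM in the insB:9-23 group and 51.7 ± 1.38 CPM in the vehicle group (SD, n = 3 each; edgeR adjusted p = 0.88). Lsm10, of the U7 particle that guides this cut, was at 0.851 ± 0.205 CPM in the insB:9-23 group and 2.18 ± 2.19 CPM in the vehicle group, where replicate 1 had 297 counts and the others 64 and 43 (edgeR adjusted p = 0.88).

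Among 13 tested chaperones of linker histones and proteins that compete with them on chromatin, 6 had a fold above 0 and 7 below, with a median of -0.03. None was called by edgeR. An unadjusted p below 0.05 was reached by 1 of the 13, not Hmgb1, against 5.55% of all genes tested. Hmgb1, a high mobility group protein that displaces linker histones, had 994, 3222 and 776 counts in the insB:9-23 libraries and 816, 680 and 717 in the vehicle libraries (edgeR adjusted p = 0.88). In CPM these were 17.0, 57.3 and 16.9 in the insB:9-23 libraries and 12.9, 10.9 and 13.4 in the vehicle libraries. The groups thus did not overlap in CPM, as in 13.5% of all genes tested. The highest value came from insB:9-23 replicate 2, the library with the most B and plasma cell marker counts. The part of those cells in it was not tested.

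Markers of S phase, the phase in which cluster histones are made, and of proliferation did not pass the test. Their 20 genes summed to 144, 177 and 150 CPM in the insB:9-23 libraries and 143, 138 and 155 CPM in the vehicle libraries. Of the 20, 15 had a fold above 0 and 5 below, with a median log2 fold of 0.18, and 0 were called by edgeR (0 at an unadjusted p below 0.05). Cdk1, the mitotic kinase, was at 3.08 ± 0.657 CPM in the insB:9-23 group and 1.99 ± 0.519 CPM in the vehicle group (edgeR adjusted p = 0.88, n = 3 each). Mki67, the Ki-67 gene, was at 14.8 ± 2.70 CPM in the insB:9-23 group and 11.7 ± 0.603 CPM in the vehicle group (edgeR adjusted p = 0.88, n = 3 each). In whole islets, fewer cells of a type and less RNA per cell cannot be told apart.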

How the data were processed

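Each library has a table of raw counts by Ensembl gene ID, as deposited by the authors. Per the labels' protocols, TRIzol was used for RNA and a KAPA stranded kit for the libraries. GRCm38, HISAT, DESeq 1.8.3 and featureCounts 1.5.0-p3 are listed in the submitters' processing notes, with no role given. The sources used here do not give the strand setting, the treatment of multiply mapped reads, any poly(A) selection or the annotation release, which bear on counts of short single-exon genes and their near copies. Of 55421 gene IDs, 55240 matched GENCODE M21.

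The test was edgeR 4.0.16 under R 4.3.3 (filterByExpr, TMM scaling, robust quasi-likelihood F test, Benjamini-Hochberg adjustment over 17016 genes, threshold 0.05). The standard error is the log2 fold divided by the root of F. The fit was tested on simulated data with known folds. A gene not called may still differ. Alternatives were other scalings and filters, DESeq2 1.42.0, limma-voom (limma 3.58.1), the replicate block and each library left out. No library repeated another (chi-square per degree of freedom of at least 80.0 within groups).

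The members, lists and tests were chosen with earlier results of these data known. Text names all members, the germline linker histones, the 2 genes of smallest p in each pathway list, core histone genes averaging at least 1 CPM, protein-coding neighbours within 50 kb of Hist1h1c, and the 3 genes most correlated with Hist1h1c and with H1f0. Genes named outside this rule, such as Mafa, Krtap16-1, Slbp and the genes overlapping a member, were named with their values known, and 1 gene that the rule names is not reported here.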

Additional observations from a re-analysis of the deposited data

How the results depend on the processing

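The 14 genes called became 106 with DESeq2, 0 with the replicate block (605 at an unadjusted p below 0.05) and 16 to 26 with each library left out, of which 25 without insB:9-23 replicate 1, 26 without insB:9-23 replicate 3 and 23 without vehicle replicate 1. The labels do not say whether the replicate numbers pair the libraries. Deviations of same-numbered libraries correlated at -0.03, -0.06 and -0.03, and those of differently numbered libraries at -0.03 to 0.06. Values this near 0 show no sign of pairing but cannot exclude it. The Hist1h1c log2 fold is a description whose size depends on how each method treats a group at 0. It was -14.99 with DESeq2, -13.55 with limma-voom, -15.63 with the block and between -15.69 and -15.60 with each library left out. Hist1h1c, like every other gene, was not called with the block. H1f0 turned to positive folds of 0.53 without insB:9-23 replicate 1, 0.40 without vehicle replicate 1 and 0.32 without vehicle replicate 2 (range -0.64 to 0.53). Hist1h1e ranged from -0.71 to 0.013, the last without insB:9-23 replicate 1. Neither passed under any alternative run. The median log2 fold of core histones was 0.14 with at least 1 CPM in 3 libraries, 1.59 with limma-voom, 0.77 with the replicate block and -0.27 to 0.49 with each library left out. Library totals alone moved the median of all genes to -0.15, and the medians were -0.16 for replacement histones, -0.19 for message processing and -0.17 for chaperones, whose range with each library left out was -0.062 to 0.17 (-0.062 without vehicle replicate 2). In the vehicle libraries alone, the mean difference of Hist1h1c over H1f0 was 10.2 ± 57.1 CPM per kb (SD). That of H1fx over Hist1h1e was 0.69 ± 3.52 CPM per kb (SD). Both means were positive through vehicle replicate 3 alone, and in vehicle replicates 1 and 2 both differences were below 0. The share of single-exon genes at 0 in some library was 58.2% when genes with 1 exonic block were used, a definition chosen after seeing the data. At 1 CPM in place of 5 CPM, 4 genes (Hist1h1c, Galnt4, Nhlrc1 and Krtap16-1) were at 0 in the insB:9-23 group alone. The cause of these shifts was not tested.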
